A study of Mus musculus with 6 samples.

Results

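Wnt signalling was described through 46 genes of the 22030 in the count table, of which 15349 are protein-coding. The genes were picked by a rule on symbols that uses no measured value, although earlier results of these data were known. The rule takes every protein-coding Wnt ligand, Frizzled receptor, Dickkopf and secreted Frizzled-related inhibitor, Dishevelled and Tcf7 family symbol in the table, with a fixed set of further pathway genes. By role they are 11 ligands, 14 receptors and co-receptors, 6 secreted inhibitors, 7 genes of the Dishevelled proteins, β-catenin and its destruction complex, 4 DNA-binding factors and 4 feedback regulators.

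The libraries came from mouse bone marrow mesenchymal stem cells, stromal progenitors able to form bone, fat and cartilage. Of the 6 mRNA libraries, 3 are titled siNC and carry the genotype label WT, and 3 are titled siRIOK3 and carry the label RIOK3 knockdown. The title prefix si is usual for short interfering RNA, while the design text speaks of stable lentiviral lines and once of a knockout, so the agent is not settled by the sources used here. The series concerns how RIOK3, an atypical protein kinase, bears on osteogenic differentiation of these cells.

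Wnt ligands are secreted lipid-modified proteins that bind Frizzled receptors together with the co-receptors LRP5 and LRP6. Binding recruits Dishevelled and holds back the destruction complex of AXIN, APC and GSK3B, so that β-catenin accumulates and activates genes with TCF and LEF factors. Other ligands act without β-catenin, through ROR receptors, planar polarity proteins or calcium. In bone marrow stroma the pathway is known for favouring the osteoblast over the adipocyte fate.

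The promoters of genes that open, transmit and end the pathway are shown first, so that the values can be read beside the DNA they belong to. For 33 of the 46 genes RefSeq (GRCm38.p6) gave at least 1 annotated start, with 43 windows of the 250 bases before a start. Windows are shown for Wnt9a, Dvl2 and Lef1, which had the smallest p among called genes with a window in their roles, and for Wnt5b, one of whose windows held a TCF/LEF core. Capitals mark that core.
Wnt9a (chr11:59306680-59306929, + strand): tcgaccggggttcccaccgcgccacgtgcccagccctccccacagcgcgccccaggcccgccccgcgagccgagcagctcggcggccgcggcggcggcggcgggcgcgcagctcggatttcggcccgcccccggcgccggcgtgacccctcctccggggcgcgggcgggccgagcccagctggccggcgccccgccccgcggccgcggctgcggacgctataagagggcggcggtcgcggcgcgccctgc
Dvl2 (chr11:70000342-70000591, + strand): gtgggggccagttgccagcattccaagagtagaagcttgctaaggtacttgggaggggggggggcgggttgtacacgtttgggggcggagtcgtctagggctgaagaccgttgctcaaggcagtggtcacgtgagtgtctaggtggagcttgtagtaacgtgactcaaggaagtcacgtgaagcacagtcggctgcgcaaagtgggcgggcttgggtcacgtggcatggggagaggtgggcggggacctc
Lef1, most 5′ of 4 starts (chr3:131110047-131110296, + strand): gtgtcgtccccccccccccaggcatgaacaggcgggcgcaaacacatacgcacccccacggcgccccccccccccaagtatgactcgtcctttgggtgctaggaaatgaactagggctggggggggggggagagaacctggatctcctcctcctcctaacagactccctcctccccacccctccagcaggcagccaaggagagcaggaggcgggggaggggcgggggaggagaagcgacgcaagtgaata
Wnt5b, most 3′ of 3 starts (chr6:119449387-119449636, - strand): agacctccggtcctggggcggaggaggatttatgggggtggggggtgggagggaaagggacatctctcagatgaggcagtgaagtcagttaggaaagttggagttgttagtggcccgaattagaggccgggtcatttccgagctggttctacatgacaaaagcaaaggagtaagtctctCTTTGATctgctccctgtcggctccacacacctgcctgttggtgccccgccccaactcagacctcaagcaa

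The letters CTTTGAT and CTTTGAA were searched on both strands, where they read ATCAAAG and TTCAAAG in reverse. They occurred in 3 of the 43 windows (6.98%), against 7.48% of all 32851 windows of the same length. The core in the Wnt5b window began 71 bases before the start, and the other windows with a core belonged to Dkk1 and Wnt11. None of the 5 genes called higher that had a window held one, which says only that these letters are absent from those 250 bases. The windows of the Wnt genes were rich in GC, with a median of 66.8% against 52.4% of all windows, and in CpG, with a median of 21 against 6. The Wnt9a window reached 84.4% GC with 48 CpG, the Lef1 window 66.4% with 11 and the Dvl2 window 60.8% with 13.

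Libraries held between 28327612 and 32569544 counts. Riok3 on chromosome 18 went from 157 ± 31.1 to 33.6 ± 3.12 CPM (counts scaled to library size by the trimmed mean of M-values, TMM; SD, n = 3 each), a log2 fold change of −2.23 (SE 0.178, adjusted p = 0.000127). The library siNC replicate 2 stood apart, its log2 CPM correlating at 0.963 and 0.968 (Spearman) with the other siNC libraries, which reached 0.996 between themselves. Of 18 markers of mesenchymal stroma 17 were in the table, and their summed level ran from 914 to 1170 CPM in siNC and from 1030 to 1040 CPM in siRIOK3, with 6 of 16 tested called higher and 7 lower and Lepr too low to test. Markers of macrophages summed to between 26.9 and 43.4 CPM in siNC and between 46.7 and 51.7 CPM in siRIOK3, those of adipocytes to between 110 and 121 and between 51.8 and 53.7 CPM. Cd68 alone gave most of the macrophage sum (35.3 ± 9.66 and 48.3 ± 2.58 CPM) and was not called. Ptprc, Csf1r and Itgam were too low to test, and Cd14 was not called. Lpl gave most of the adipocyte sum (93.4 ± 7.06 and 34.8 ± 0.952 CPM) and was called lower. Fabp4 was also called lower (log2 fold change −2.11, adjusted p = 0.0023), and Pparg was not called. Chondrocyte markers summed to between 21.8 and 30.5 CPM in siNC and between 15.8 and 18 CPM in siRIOK3, osteoblast markers to between 22.1 and 31.0 and between 29.3 and 31.9 CPM, and markers of other blood and endothelial cells to under 10 CPM. Sox9 gave most of the chondrocyte sum and was called lower (−0.62, adjusted p = 0.0263), as was Acan (−1.43, adjusted p = 0.0149). Runx2 gave most of the osteoblast sum and was not called, while Alpl was called higher (1.31, adjusted p = 0.00581). The part of these cell types in the results below was not tested. In bulk RNA, fewer cells of a type and less RNA per cell cannot be told apart. Whether the 3 libraries of a group were separate cultures is not stated, and the p-values therefore reflect the spread among these libraries, which could be technical.

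Most Wnt genes that changed were higher in siRIOK3, and every role but the feedback regulators held such genes, the ligands only Wnt9a. A pair at the receptor and in the destruction complex was lower. Lef1, Tcf7 and Tcf7l1, the pathway's DNA-binding factors, rose by 1.96-fold, 2.15-fold and 3.28-fold. The ligand gene Wnt9a rose 3.24-fold, the receptor genes Fzd2 and Fzd6 2.47-fold and 2.10-fold, the co-receptor gene Lrp5 2.29-fold and the inhibitor gene Dkk3 2.32-fold. Axin1 and Dvl2 rose by 1.54-fold and 1.92-fold. Apc was 2.75-fold and Lrp6 1.87-fold lower, and the β-catenin gene Ctnnb1 was not called, at 230 ± 24.3 and 212 ± 0.931 CPM. Lrp5, Axin1, Dvl2, Apc and Lrp6 lost their calls when each library's trend on transcript GC content, treated below, was removed.

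Of the 46 genes 30 passed the filter on low counts. Among these 10 were called higher and 2 lower at an edgeR adjusted p under 0.05, and 18 were not called. Over all 13067 tested genes 48% were called, 21.1% higher and 26.8% lower. The median log2 fold change was 0.72 over the 30 Wnt genes and 0.01 over all tested genes. The CPM of the groups did not overlap for 17 Wnt genes that were higher and 2 that were lower in siRIOK3, where 62.1% of all tested genes had groups apart. A gene that is high in 1 group passes the filter more easily, so these figures describe the 30 genes and not the other 16.

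The counts were larger without siNC replicate 2, for the Wnt genes as for all genes. Without that library 14 Wnt genes were called higher and 5 lower, with a median of 0.50, and 35.1% of all genes then tested were called higher and 36.5% lower. Leaving out any one of the other 5 libraries left none called lower, since Apc and Lrp6 then missed the threshold, and between 9 and 11 called higher.

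**Figure D1:**
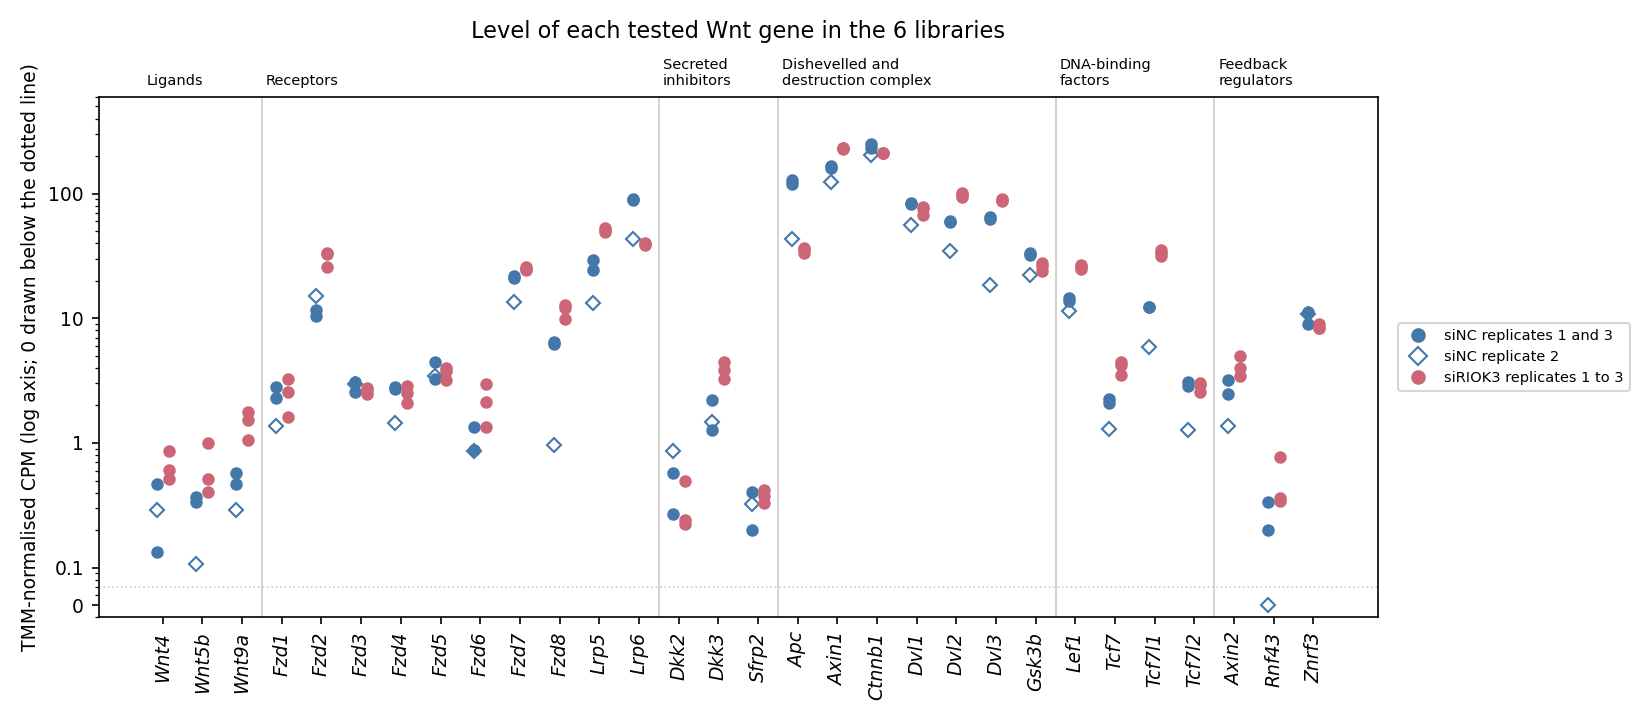
TMM-normalised CPM of the 30 tested Wnt genes on a log axis, each point being 1 library, with siNC in blue (replicate 2 as open diamonds) and siRIOK3 in red. Among called genes near or above 10 CPM, Fzd2, Lrp5, Axin1, Dvl2, Lef1 and Tcf7l1 had all siRIOK3 points above all siNC points. Apc and Lrp6 had them below. The siNC replicate 2 point lay under the other siNC points for most of the 30 genes, Lef1, Tcf7l1, Lrp5, Axin1 and Dvl2 among them. The gap was wide for Apc, Lrp6, Dvl3 and Fzd8. The lone point at 0 is Rnf43 in siNC replicate 2.

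Ligand genes were scarce, and Wnt9a alone was called. Only 3 of 11 passed the filter. Wnt9a (ENSMUSG00000000126.12, chromosome 11), a ligand known from cartilage and joint formation, had 0.470, 0.288 and 0.573 CPM in siNC replicates 1 to 3 and 1.06, 1.53 and 1.77 CPM in siRIOK3 replicates 1 to 3. Every siRIOK3 library was thus above the highest siNC library. With 14, 8 and 17 counts in siNC, Wnt9a passed the filter on low counts more easily for being high in siRIOK3. The log2 fold change was 1.70 (SE 0.355, adjusted p = 0.00715).

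Wnt4 and Wnt5b, ligands associated mostly with signalling that does not need β-catenin, were not called. Wnt4 had 0.134, 0.288 and 0.472 CPM in siNC and 0.870, 0.511 and 0.612 CPM in siRIOK3 (log2 fold change 1.15, adjusted p = 0.0868). Wnt5b, whose promoter window with the core is printed above, had 0.369, 0.108 and 0.337 CPM in siNC and 0.404, 0.991 and 0.515 CPM in siRIOK3 (1.21, adjusted p = 0.107). In both genes the lowest siRIOK3 library lay just above the highest siNC library. The other 8 ligand genes, Wnt2b, Wnt3a, Wnt5a, Wnt6, Wnt7a, Wnt7b, Wnt10b and Wnt11, had between 0 and 14 counts per library, and no difference was testable at this depth.

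Among receptors, Fzd2, Fzd6 and Lrp5 were higher and Lrp6 lower, of 10 that passed the filter. Fzd2 (ENSMUSG00000050288.7, chromosome 11), a Frizzled receptor used by both branches of the pathway, had 11.6, 15.2 and 10.4 CPM in siNC and 33.5, 32.8 and 25.7 CPM in siRIOK3. Its lowest siRIOK3 value stood well clear of its highest siNC value, which was that of replicate 2. The log2 fold change was 1.31 (SE 0.191, adjusted p = 0.0016).

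Fzd6 (ENSMUSG00000022297.16, chromosome 15), known for tissue polarity, was near 1 CPM, at 0.873, 0.863 and 1.35 CPM in siNC and 2.14, 1.35 and 2.99 CPM in siRIOK3. The groups barely parted, siRIOK3 replicate 2 lying level with siNC replicate 3 after rounding. The log2 fold change of 1.07 (SE 0.358, adjusted p = 0.0431) missed the threshold without siNC replicate 1 (0.96, adjusted p = 0.12), siRIOK3 replicate 1 (1.08, adjusted p = 0.101) or siRIOK3 replicate 3 (0.77, adjusted p = 0.144).

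The 2 LRP co-receptors went opposite ways. Lrp5 (ENSMUSG00000024913.17, chromosome 19), the co-receptor whose gene is known for its effect on bone mass, had 24.3, 13.3 and 29.6 CPM in siNC and 53.4, 51.5 and 49.2 CPM in siRIOK3. All 3 siRIOK3 libraries were close together and far above siNC, where replicate 2 was lowest (log2 fold change 1.20, SE 0.277, adjusted p = 0.0108). Lrp6 (ENSMUSG00000030201.16, chromosome 6), its close relative, had 88.3, 43.5 and 90.4 CPM in siNC and 39.4, 38.7 and 40.4 CPM in siRIOK3. The groups were apart only narrowly, because siNC replicate 2 lay near the siRIOK3 libraries. The log2 fold change of Lrp6 was −0.91 (SE 0.272, adjusted p = 0.0294) and −1.18 without that library. It lost its call without any one of the other 5 libraries, at values between −0.91 and −0.74.

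The remaining Frizzled genes were not called. Fzd7, among the Frizzled genes with most reads, had 22.0, 13.6 and 21 CPM in siNC and 24.9, 26.0 and 24.4 CPM in siRIOK3, so that the groups were apart by a small gap (log2 fold change 0.41, adjusted p = 0.126). Fzd8 on chromosome 18 had 6.48, 0.971 and 6.23 CPM in siNC and 12.0, 12.7 and 9.79 CPM in siRIOK3. Again siNC replicate 2 was far below its group, and the log2 fold change of 1.33 (adjusted p = 0.0924) became 0.86 (adjusted p = 3.21e-05) without it. Fzd7 was likewise called without that library, at 0.22 (adjusted p = 0.0275). When each library's trend on transcript GC content, treated below, was removed as well, Fzd8 kept this call (0.71, adjusted p = 0.00014). Fzd7 lost it (−0.12, adjusted p = 0.201).

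Fzd1, Fzd3, Fzd4 and Fzd5 had group means between 2.15 and 3.72 CPM, overlapping groups and log2 fold changes of 0.20, −0.14, 0.10 and −0.03. The sign of each of these 4 changed in at least 1 alternative. Fzd9, Fzd10, Ror1 and Ror2 were too low to test, with at most 16 counts in a library. Ror2, the receptor best known for β-catenin-independent signalling by Wnt5a, had 4 counts in each siNC library and 16, 10 and 9 in siRIOK3.

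Of the 6 secreted inhibitors 3 could be tested and Dkk3 was higher. Dkk3 (ENSMUSG00000030772.7, chromosome 7), a divergent Dickkopf protein whose action on LRP co-receptors is unsettled, had 2.22, 1.47 and 1.28 CPM in siNC and 3.85, 4.45 and 3.25 CPM in siRIOK3. The siRIOK3 libraries were all above siNC (log2 fold change 1.21, SE 0.261, adjusted p = 0.008). It kept its call in all 19 alternatives that gave it a value.

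Dkk2 and Sfrp2, antagonists that act on LRP co-receptors and on ligands, stayed under 1 CPM with overlapping groups. Dkk2 had 0.269, 0.863 and 0.573 CPM in siNC and 0.497, 0.240 and 0.225 CPM in siRIOK3 (log2 fold change −0.81, adjusted p = 0.251). Sfrp2 had 0.201, 0.324 and 0.404 CPM in siNC and 0.373, 0.330 and 0.419 CPM in siRIOK3 (0.27, adjusted p = 0.597). Dkk1, Sfrp4 and Wif1 had between 0 and 12 counts in a library and were not tested.

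All 7 genes of the Dishevelled proteins, β-catenin and the destruction complex were tested, with Axin1 and Dvl2 higher and Apc lower. Axin1 (ENSMUSG00000024182.17, chromosome 17), the scaffold of the destruction complex, had 159, 125 and 165 CPM in siNC and 228, 232 and 232 CPM in siRIOK3. The siRIOK3 libraries were almost equal and all above siNC (log2 fold change 0.63, SE 0.140, adjusted p = 0.00927). Apc (ENSMUSG00000005871.16, chromosome 18), which binds β-catenin in that complex, had 129, 42.9 and 120 CPM in siNC and 33.5, 35.7 and 36.9 CPM in siRIOK3. As for Lrp6, siNC replicate 2 lay near siRIOK3 and the groups were narrowly apart. The log2 fold change was −1.46 (SE 0.382, adjusted p = 0.0176) and −1.81 without siNC replicate 2. Apc lost its call without any one of the other 5 libraries, at values between −1.48 and −1.21.

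Dishevelled proteins carry the signal from Frizzled receptors to the destruction complex. Dvl2 (ENSMUSG00000020888.17, chromosome 11), whose promoter is printed above, had 60.2, 34.6 and 58.7 CPM in siNC and 98.3, 102 and 94.3 CPM in siRIOK3. All siRIOK3 libraries were above all siNC libraries (log2 fold change 0.94, SE 0.219, adjusted p = 0.0111). Exons of Acadvl, on the opposite strand, cover 18.3% of the Dvl2 exons in GENCODE M21. Acadvl had between 663 and 1232 counts per library, and the sources used here do not say whether the counting used strand, so the counts of both genes are uncertain.

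Dvl3 had 62.0, 18.6 and 65.1 CPM in siNC and 88.2, 87.3 and 90.5 CPM in siRIOK3 (log2 fold change 0.87, adjusted p = 0.128). Its siNC replicate 2 value was far below every other library, and without it the gene was called at 0.48 (adjusted p = 6.3e-06). That call was lost when the GC trend was removed as well (0.04, adjusted p = 0.59). Dvl1 had 83.0, 55.9 and 84.1 CPM in siNC and 77.4, 75.7 and 67.5 CPM in siRIOK3 (−0.02, adjusted p = 0.95), with siRIOK3 lying inside the siNC range. Gsk3b, the kinase that marks β-catenin for destruction, had 32.3, 22.4 and 33.7 CPM in siNC and 23.9, 27.7 and 26.3 CPM in siRIOK3 (−0.18, adjusted p = 0.44), also inside the siNC range.

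Ctnnb1, which encodes β-catenin, had 234, 203 and 252 CPM in siNC and 211, 212 and 213 CPM in siRIOK3. The siRIOK3 libraries were nearly equal and fell between the siNC values (log2 fold change −0.12, SE 0.125, adjusted p = 0.467). Without siNC replicate 2, Ctnnb1, Gsk3b and Dvl1 were called lower, at −0.20, −0.35 and −0.18 (adjusted p = 0.00892, 0.00177 and 0.0308). In that fit 36.5% of all genes were called lower. When the GC trend was removed as well, Gsk3b was called higher (0.48, adjusted p = 6.02e-05). Ctnnb1 (−0.17, adjusted p = 0.00662) and Dvl1 (−0.90, adjusted p = 2.64e-10) stayed lower.

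Among DNA-binding factors 3 of 4 were higher and none lower. Lef1 (ENSMUSG00000027985.15, chromosome 3), the lymphoid enhancer factor that joins β-catenin on DNA, had 14.5, 11.4 and 13.8 CPM in siNC and 25, 26.8 and 26.0 CPM in siRIOK3. Both groups were tight and far apart (log2 fold change 0.97, SE 0.141, adjusted p = 0.00144). Tcf7l1 (ENSMUSG00000055799.14, chromosome 6), known mainly as a repressor of Wnt targets when β-catenin is absent, had 12.4, 5.90 and 12.3 CPM in siNC and 35.5, 33.4 and 31.5 CPM in siRIOK3. Every siRIOK3 library was well above the siNC libraries (1.71, SE 0.282, adjusted p = 0.00261).

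Tcf7 (ENSMUSG00000000782.17, chromosome 11), a factor that is itself a known Wnt target, had 2.11, 1.29 and 2.26 CPM in siNC and 4.23, 4.48 and 3.51 CPM in siRIOK3, without overlap (log2 fold change 1.10, SE 0.251, adjusted p = 0.0101). Tcf7l2, the fourth gene of the family, had 2.85, 1.26 and 3.07 CPM in siNC and 3.05, 2.91 and 2.58 CPM in siRIOK3. Its groups overlapped (0.25, adjusted p = 0.565). Lef1 and Tcf7l1 kept their calls in all 20 alternatives. Their exons share bases with antisense genes that had at most 22 counts in a library.

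No feedback regulator was called. Axin2, the destruction-complex scaffold most often read as a sign of β-catenin activity, had 2.48, 1.37 and 3.20 CPM in siNC and 4.94, 3.43 and 3.99 CPM in siRIOK3. The siRIOK3 libraries were all higher, by a small margin (log2 fold change 0.81, SE 0.320, adjusted p = 0.0741). Axin2 was called higher in 7 of its 17 alternatives, DESeq2 (adjusted p = 0.0408) and the fit without siNC replicate 2 (0.54, adjusted p = 0.0317) or without siNC replicate 3 (1.09, adjusted p = 0.044) among them. It was not called with each library's trend on transcript GC content, treated below, removed (0.41, adjusted p = 0.354). With siNC replicate 2 left out as well, Axin2 was at 0.14 (adjusted p = 0.568).

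Rnf43 and Znrf3 encode membrane ubiquitin ligases that remove Frizzled receptors from the cell surface. Rnf43 had 0.336, 0 and 0.202 CPM in siNC and 0.342, 0.361 and 0.773 CPM in siRIOK3 (log2 fold change 1.41, adjusted p = 0.182), and its groups nearly touched. Znrf3 had 11.3, 10.9 and 9.03 CPM in siNC and 9.05, 8.41 and 8.37 CPM in siRIOK3, overlapping at the edge (−0.27, adjusted p = 0.158). Nkd1, which restrains Dishevelled, had at most 6 counts in a library and was not tested.

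Fold changes of the Wnt genes moved with the GC content of their transcripts, as those of all genes did. Across the 30 tested Wnt genes Spearman's correlation of log2 fold change with transcript GC was 0.65, and across all 13043 genes with a value it was 0.70; genes share the libraries and are not independent. The median GC was 56.5% for the Wnt genes called higher, 45.2% for the pair called lower and 50.4% for all tested genes. Lrp5 had 58.6% and Lrp6 46.0% GC, Axin1 56.6% and Apc 44.3%. With each library's trend on GC content removed, 9 Wnt genes were higher and 1 lower, where 16.3% of all genes were called higher and 15.2% lower, and the median was 0.56 for the Wnt genes and 0.03 for all.

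Lef1 (0.83, adjusted p = 0.0029), Tcf7 (0.88, adjusted p = 0.0276), Tcf7l1 (1.02, adjusted p = 0.0398), Wnt9a (1.19, adjusted p = 0.0439), Fzd2 (0.77, adjusted p = 0.0174), Fzd6 (1.45, adjusted p = 0.0207) and Dkk3 (1.11, adjusted p = 0.0168) kept their calls without the trend. Lrp5 (0.58, adjusted p = 0.153), Dvl2 (0.38, adjusted p = 0.236), Axin1 (0.10, adjusted p = 0.636), Apc (−0.46, adjusted p = 0.296) and Lrp6 (−0.26, adjusted p = 0.383) lost theirs. Fzd3, whose transcript had the lowest GC of the tested Wnt genes at 40.3%, was then called higher at 1.79 (adjusted p = 0.00177). Gsk3b was called higher at 0.56 (adjusted p = 0.0193) and Dvl1 lower at −0.70 (adjusted p = 0.0347). With siNC replicate 2 left out as well, Lrp5 (0.30, adjusted p = 0.00108) and Dvl2 (0.16, adjusted p = 0.0275) were called higher, and Apc (−0.77, adjusted p = 1.59e-09) and Lrp6 (−0.47, adjusted p = 1.87e-06) lower. Axin1 (−0.02, adjusted p = 0.739) was not called. Leaving out that library with the trend kept gave 35.1% of all genes called higher and 36.5% lower.

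**Figure D2:**
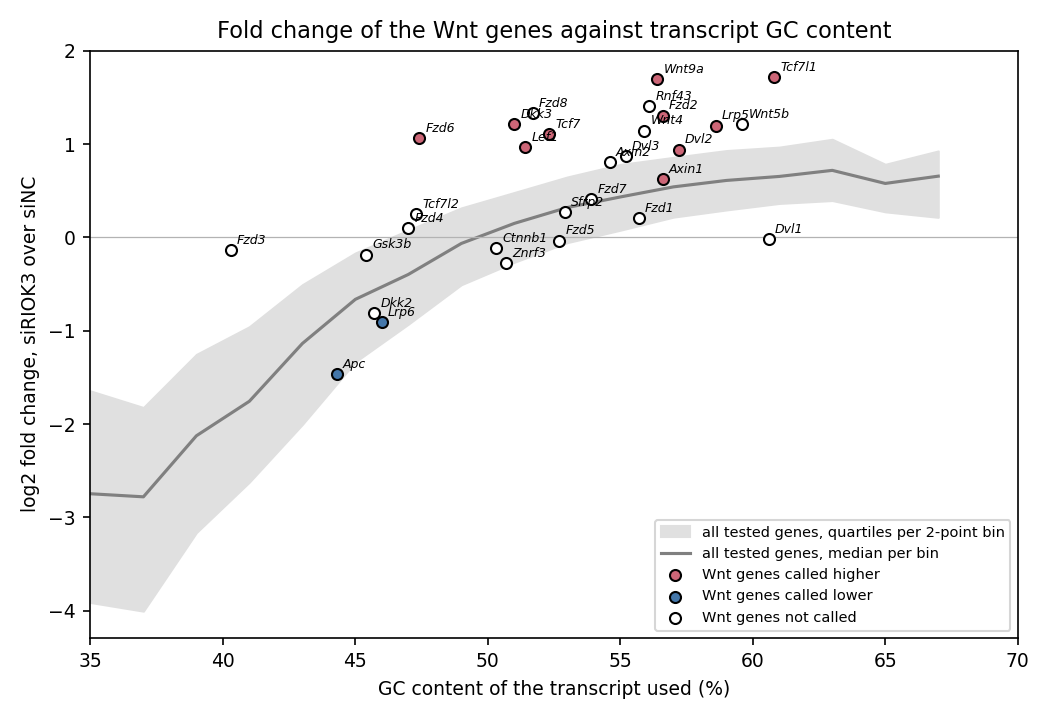
Log2 fold change (siRIOK3 over siNC) of the 30 tested Wnt genes against the GC content of the transcript used, with the median (line) and quartiles (band) of all tested genes in bins of 2 points of GC. Most of the 30 genes lay above the band, Fzd3, Fzd6, Tcf7l1, Lef1, Tcf7, Wnt9a, Fzd2, Dkk3 and Lrp5 among them. Dvl1 lay below it, and Axin1 and Lrp6 lay within it. Apc, at −1.46, was under the lower quartile of its bin (−1.33).

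**Figure D3:**
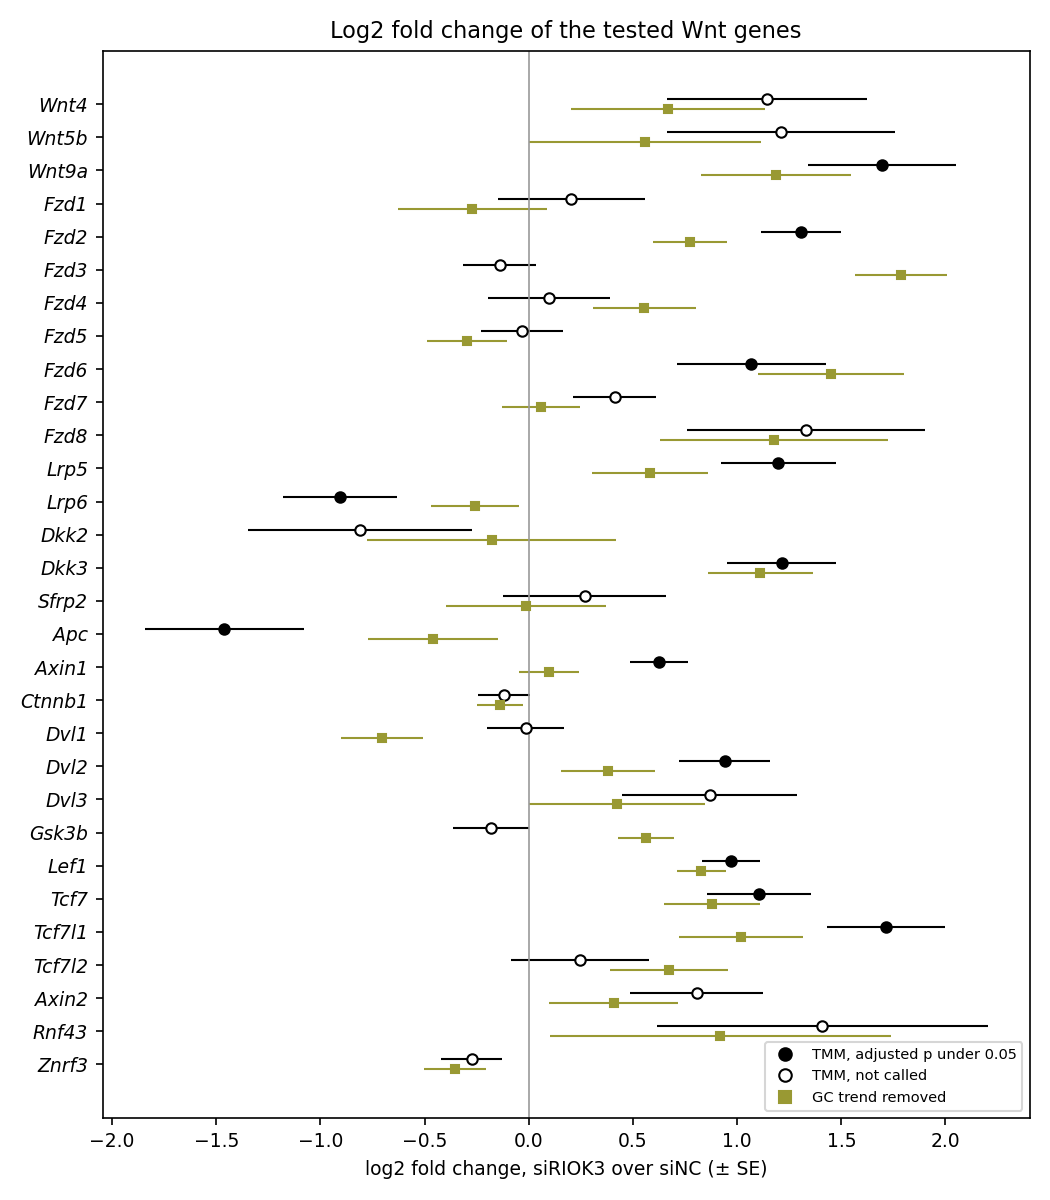
Log2 fold change ± SE of the 30 tested Wnt genes from the TMM fit (circles, filled where the adjusted p was under 0.05) and with the GC trend removed (squares). Lef1, Dkk3 and Tcf7 stayed near 1 in both, Wnt9a moved from 1.70 to 1.19, Apc moved from −1.46 to −0.46, and Fzd3 moved from −0.14 to 1.79.

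Levels per gene length, which allow genes to be compared with each other, were read from the deposited FPKM values (fragments scaled by gene length and library total). Such comparisons depend on the length that was taken for each gene. Ctnnb1 and Axin1 were the most abundant Wnt genes in siNC, at 39.1 ± 4.94 and 34.5 ± 5.55 FPKM (SD, n = 3), and did not differ beyond their spread. The Dishevelled genes followed, Dvl1 at 13.2 ± 3.01, Dvl2 at 7.19 ± 2.10 and Dvl3 at 6.72 ± 3.66 FPKM, then Apc at 5.35 ± 2.64 and Lrp6 at 4.79 ± 1.77 FPKM, neighbours within their spread. Fzd7 (3.68 ± 0.942), Fzd2 (2.98 ± 0.537), Gsk3b (2.65 ± 0.595), Tcf7l1 (2.30 ± 0.864) and Lrp5 (2.04 ± 0.795 FPKM) formed the next tier, and apart from Lef1 and Znrf3, at 1.33 ± 0.173 and 1.16 ± 0.118 FPKM, every other Wnt gene had a siNC mean under 1 FPKM. In siRIOK3 Axin1 stood first, at 64.3 ± 1.03 FPKM against 43.5 ± 0.490 for Ctnnb1, and Tcf7l1 (9.10 ± 0.490) and Fzd2 (8.93 ± 1.20 FPKM) stood above Lrp6 (3.08 ± 0.0850) and Apc (2.35 ± 0.127 FPKM). Levels in FPKM follow library totals. Scaling the counts in that way put the 13067 tested genes at a median of 0.26 (log2 fold change), and the sums below were not corrected for such a shift.

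Family make-up differed between the groups, most of all in the LRP pair. Lrp5 gave 27.8, 29.9 and 31.5% of the summed Lrp5 and Lrp6 FPKM in siNC and 65.6, 65.2 and 63.1% in siRIOK3. The libraries of each group, siNC replicate 2 included, lay close together (29.8 ± 1.85 and 64.6 ± 1.36%, exact permutation p = 0.1, two-sided, the smallest that 3 against 3 allow). The pair's summed level was 6.83 ± 2.54 FPKM in siNC and 8.72 ± 0.129 FPKM in siRIOK3 (exact permutation p = 0.3). The gene that gained share had the higher transcript GC, 58.6 against 46.0%, and the part of that in the shares was not tested. In the fits on counts, the log2 fold changes of Lrp5 and Lrp6 were 1.20 and −0.91. With the GC trend removed they were 0.58 and −0.26, neither called.

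The TCF/LEF factors summed to 5.09, 2.92 and 5.24 FPKM in siNC and 14.4, 14.3 and 13.4 FPKM in siRIOK3, with no overlap (exact permutation p = 0.1). Tcf7l1 was the main member in both groups, with 50.9 ± 5.54% of the sum in siNC and 64.8 ± 1.38% in siRIOK3. Lef1 held 31.4 ± 6.38 and 22.5 ± 1.48%, so that it rose in level and its share was lower. The Frizzled sum went from 9.01 ± 1.20 to 19.3 ± 1.36 FPKM (exact permutation p = 0.1). Fzd7 held the largest share in siNC (40.3 ± 5.64%) and Fzd2 in siRIOK3 (46.1 ± 3.29%), but in siNC replicate 2 Fzd2 already led with 46.9% against 33.9% for Fzd7. The Fzd2 share thus overlapped between the groups (exact permutation p = 0.2).

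Dishevelled levels summed to 27.1 ± 8.77 FPKM in siNC and 47.1 ± 1.22 FPKM in siRIOK3 (exact permutation p = 0.1). Dvl1 gave 50 ± 6.23% of the sum in siNC and 33.3 ± 1.44% in siRIOK3, where the 3 genes had nearly equal shares, Dvl2 with 35.3 ± 0.629% and Dvl3 with 31.4 ± 1.55%. Ligands remained rare in both groups, with sums of 0.430 ± 0.108 and 1.12 ± 0.180 FPKM over 11 genes. The 6 secreted inhibitors summed to 0.767 ± 0.0907 and 1.52 ± 0.178 FPKM, of which Dkk3 gave 56.6 ± 15.7 and 80.1 ± 3.31%.

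**Figure D4:**
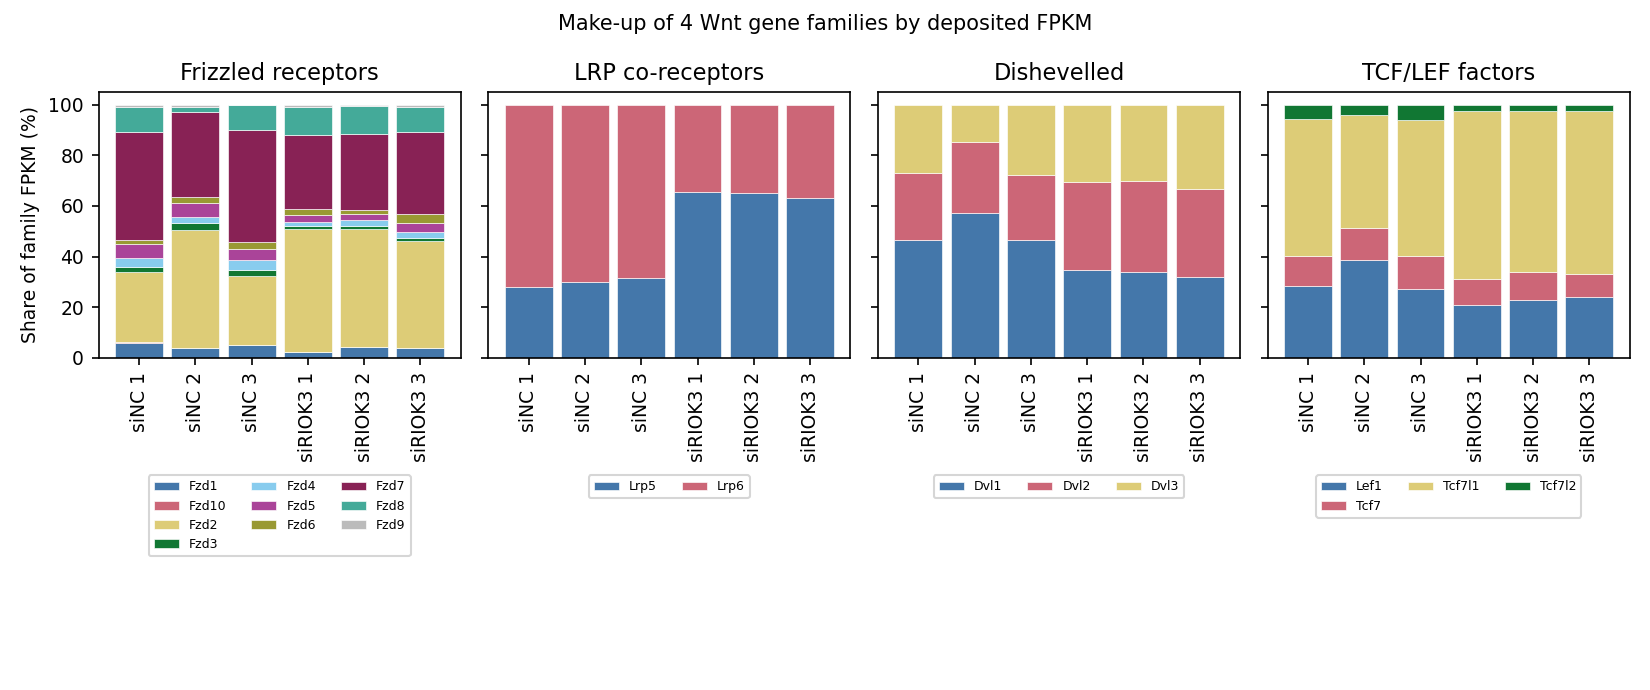
Share of each gene in the summed FPKM of its family, in percent, for Frizzled receptors, LRP co-receptors, Dishevelled proteins and TCF/LEF factors, with 1 bar per library. The Lrp5 share was between 27.8 and 31.5% in siNC and between 63.1 and 65.6% in siRIOK3, while in the Frizzled panel siNC replicate 2 resembled siRIOK3 in its Fzd2 share.

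Beyond the 46 genes, 6 lists of other pathway genes held 164 genes, of which 134 were tested, with 30 higher, 43 lower and a median log2 fold change of −0.02. Over all tested genes 21.1% were higher and 26.8% lower, so that lower calls outnumbered higher ones there too. The number higher was 18 without siRIOK3 replicate 1 and 19 without siRIOK3 replicate 2. It was 45 without siNC replicate 2, where 35.1% of all genes were higher. Of 27 tested target genes of β-catenin outside the 46, 12 were lower and 3 higher, with a median of −0.16. Target genes among the 46 were not in this count. Of these, Lef1 and Tcf7 were called higher, and Axin2, Rnf43 and Znrf3 were not called. After removal of the GC trend 13 were lower and 3 higher with a median of −0.43, where 15.2% of all genes were lower and 16.3% higher. Without siNC replicate 2, 14 target genes were lower and 8 higher, where 36.5% of all genes were lower and 35.1% higher. Jun, the AP-1 subunit, had 165, 154 and 180 CPM in siNC and 73.9, 73.8 and 71.5 CPM in siRIOK3 (−1.19, adjusted p = 0.000302). Ccnd1, cyclin D1 of the G1 phase, had 79.1, 54.8 and 74.0 CPM in siNC and 29.2, 26.4 and 30 CPM in siRIOK3 (−1.28, adjusted p = 0.00107). The siRIOK3 libraries of both genes lay far under siNC, and both stayed lower without the GC trend (−1.65 and −1.37, adjusted p = 0.000251 and 0.000943).

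Snai2, a repressor of epithelial genes, fell from 85.5 ± 21.5 to 23.0 ± 1.20 CPM (−1.90, adjusted p = 0.000431) and was also lower without the GC trend (−0.50, adjusted p = 0.0233). Ptgs2, the inducible cyclooxygenase, went from 32.5 ± 10.8 to 5.71 ± 1.08 CPM (−2.51, adjusted p = 0.000626), a call lost without the trend (−0.47, adjusted p = 0.11). These target genes answer to many other signals too, and the direction of β-catenin activity was not measured. The 3 target genes called higher, named here after their values were seen, were Mmp14, Msx1 and Apcdd1. Without the trend Mmp14 (0.35, adjusted p = 0.0626) and Msx1 (0.45, adjusted p = 0.105) lost their calls, Apcdd1 kept its own (1.02, adjusted p = 0.00177), and Bambi (1.34, adjusted p = 0.00437) and Gja1 (0.64, adjusted p = 0.013) were called higher.

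Extracellular regulators went both ways, with 4 higher and 2 lower of 10 tested, beside 21.1% higher and 26.8% lower over all tested genes. Rspo3, an R-spondin that strengthens Wnt signals by sparing Frizzled receptors from Rnf43 and Znrf3, had 31, 29 and 17 counts in siNC and 0 in each siRIOK3 library. Taking 3 counts per library as the most that a count of 0 allows, it was at least 9.49-fold lower (adjusted p = 0.00182), counting error alone being covered. Trabd2b, a protease that inactivates Wnt ligands, went from 5.16 ± 0.572 to 15.1 ± 1.12 CPM (1.55, adjusted p = 0.000261). Igfbp4, a secreted protein reported to hinder Frizzled and LRP6, went from 156 ± 28.6 to 423 ± 20.8 CPM (1.44, adjusted p = 0.00051). Tmed5, a cargo receptor of the secretory route, fell from 40.9 ± 14.1 to 2.87 ± 0.442 CPM (−3.83, adjusted p = 0.000148), but its transcript had 35% GC and without that trend the value was −0.66 (adjusted p = 0.0443). Rspo3, Trabd2b and Igfbp4 also kept their calls without the trend.

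Of 25 tested regulators of the destruction complex and membrane steps 6 were higher and 11 lower, and 7 and 3 without the GC trend. Over all tested genes the order also turned, from 21.1% higher and 26.8% lower to 16.3% and 15.2%. Csnk1g3, a casein kinase that phosphorylates LRP6, fell from 68.0 ± 4.08 to 17.1 ± 0.433 CPM (−1.99, adjusted p = 4.17e-05) and stayed lower (−1.66, adjusted p = 0.000251). Its relative Csnk1g2 rose from 104 ± 6.64 to 169 ± 9.98 CPM (0.71, adjusted p = 0.00283), a call lost without the trend (0.04, adjusted p = 0.787). Btrc, the ubiquitin ligase subunit that reads phosphorylated β-catenin, rose from 14.0 ± 1.11 to 27.0 ± 1.24 CPM (0.95, adjusted p = 0.00109) and was also higher without it (0.73, adjusted p = 0.00614). Ppp2r5e, a phosphatase subunit, fell from 82.0 ± 3.54 to 39.5 ± 1.15 CPM (−1.05, adjusted p = 0.000428) and missed the threshold without the trend (−0.31, adjusted p = 0.0827).

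The list of nuclear cofactors of β-catenin, which also holds the cell junction genes Cdh1, Cdh2 and Ctnnd1, went both ways. Of 28 tested genes 7 were higher and 6 lower, and 4 each way without the GC trend. Over all tested genes 21.1% were higher and 26.8% lower, and 16.3% and 15.2% without the trend. Xpo1, the main nuclear export receptor, fell from 337 ± 128 to 29.1 ± 1.38 CPM (−3.53, adjusted p = 0.000204), and Cdh2, the N-cadherin that holds β-catenin at the membrane, from 67.6 ± 9.49 to 32.8 ± 0.734 CPM (−1.04, adjusted p = 0.00116). Both were lower without the GC trend too (−1.58 and −0.97, adjusted p = 0.00207 and 0.00136). Tbl1xr1 and Cdc73, cofactors in transcription, had log2 fold changes of −0.80 and −2.04 (adjusted p = 0.00156 and 0.0022), yet were called in the opposite direction without the trend (0.73 and 0.76, adjusted p = 0.00573 and 0.0364); their transcripts had 41.9 and 36.8% GC.

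Other receptors gave 4 higher and 2 lower of 13 tested, beside 21.1% higher and 26.8% lower over all tested genes. Ptk7, a co-receptor of the planar polarity branch, rose from 23.8 ± 5.13 to 68.0 ± 5.22 CPM (1.52, adjusted p = 0.00076) and stayed higher without the GC trend (0.88, adjusted p = 0.0116). Lgr6, a receptor for R-spondins, rose from 0.310 ± 0.0678 to 0.783 ± 0.204 CPM (1.33, adjusted p = 0.0203), and the glypican gene Gpc6 fell from 3.59 ± 0.839 to 2.15 ± 0.0378 CPM (−0.74, adjusted p = 0.03). Cd44, a hyaluronan receptor that also counts among the target genes, fell from 127 ± 9.66 to 72.6 ± 4.19 CPM (−0.80, adjusted p = 0.0018). Without the trend Lgr6 (1.07, adjusted p = 0.0608) and Cd44 (0.09, adjusted p = 0.609) lost their calls and Gpc6 (−1.08, adjusted p = 0.0103) did not.

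In the planar polarity and calcium branch 7 of 35 tested genes were higher and 11 lower, and without the GC trend 11 were higher and 5 lower, beside the same shares over all genes. Rock1, a kinase that acts on the actin cytoskeleton, had 246, 52.6 and 207 CPM in siNC and 5.84, 5.68 and 7.53 CPM in siRIOK3. The siNC values were widely spread but all far above siRIOK3 (−4.73, adjusted p = 0.000781). Ppp3ca, a calcineurin subunit, fell from 111 ± 16.5 to 13.8 ± 1.63 CPM (−3.00, adjusted p = 3.66e-05), and Plcb4, a phospholipase C, from 178 ± 88.2 to 17.6 ± 0.345 CPM (−3.34, adjusted p = 0.000781). All 3 were lower without the trend as well (−2.69, −2.46 and −2.13). Camk2d, a calcium-dependent kinase, fell from 346 ± 27.3 to 134 ± 1.33 CPM (−1.36, adjusted p = 0.000165), and was at −0.08 (adjusted p = 0.629) without it.

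**Figure D5:**
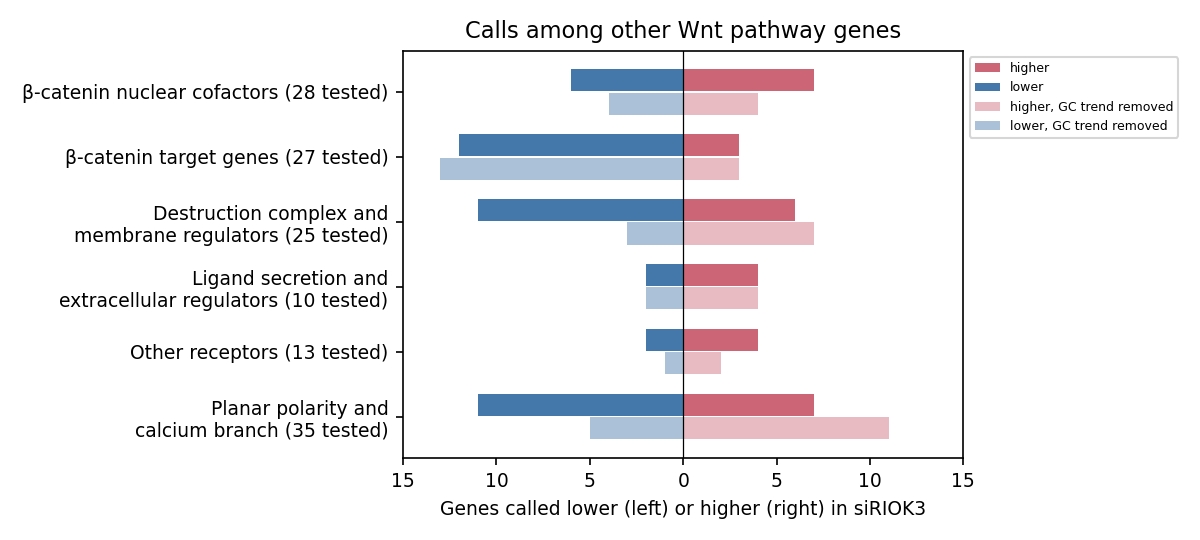
Number of genes called lower (left) and higher (right) in siRIOK3 in 6 lists of Wnt pathway genes outside the 46, from the TMM fit (dark bars) and with the GC trend removed (pale bars). Target genes of β-catenin, Lef1, Tcf7 and Axin2 not among them, had 12 lower and 3 higher and then 13 and 3. The destruction complex list went from 11 lower and 6 higher to 3 and 7.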

How the data were processed

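Stranded mRNA libraries were sequenced as paired-end reads, per the labels' protocols. Per the submitters' processing notes HISAT2, MultiQC and GRCm39 were used, with roles and versions left out. The sources used here do not say how reads were assigned to genes, with which annotation or whether by strand. Raw counts per gene were deposited by the authors, as were FPKM values, which are scaled by gene length and library total, per the file headers and values. FPKM served for levels between genes and for alternatives.

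The main test was the quasi-likelihood test of edgeR 4.0.16 (R 4.3.3) on the counts, with robust estimation, TMM scaling, filterByExpr and no covariate. This left 13067 genes holding at least 99.94% of the counts of a library. P-values are two-sided and Benjamini-Hochberg adjusted across the tested genes, and a gene was called at an adjusted p under 0.05. Levels are TMM-normalised CPM, fold changes are siRIOK3 over siNC from the fit, and correlations used log2 CPM with a prior count of 2. GC content was that of 1 transcript per gene in GENCODE M21 (GRCm38), with the longest coding part and then the longest, for 99.8% of tested genes. Each library's trend on it was smoothed (loess, span 0.3, degree 1) and used as an offset. The fit was tested on simulated data. Promoter windows came from RefSeq, and protein sequences were not analysed here.

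The members, gene lists and tests were chosen with earlier results of these data known. Named genes were Riok3, every tested member, up to 4 genes with the smallest p of each pathway list, and markers by list. The alternatives were RLE, upper-quartile and total scaling, DESeq2 1.42.0, other filters, the replicate block, GC and length offsets, limma 3.58.1 on log2(FPKM + 1) and log2(FPKM + 0.1), and each library left out. The GC offset without siNC replicate 2 was added after seeing the data.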

Additional observations from a re-analysis of the deposited data

How the results depend on the processing

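All 12 calls among the Wnt genes kept their direction and their call without siNC replicate 2, and 7 of the 12 did with the GC offset. Leaving out each library in turn gave from 9 to 19 changed Wnt genes, 9 to 14 higher and 0 to 5 lower. It gave from 49 to 107 changed other pathway genes, 18 to 45 higher and 31 to 62 lower, and from 4340 to 9592 changed genes in all, 1647 to 4701 higher and 2693 to 4891 lower. With the GC offset, 4118 genes changed in all, 1988 of them lower, as did 28 other pathway genes in the lower direction and 1 Wnt gene. With GC and length, 1 Wnt gene was lower. With the GC offset and siNC replicate 2 left out, 4501 genes were higher in all and 4 Wnt genes lower. Library totals alone gave 4280 higher genes in all and 1 lower Wnt gene, and a minimum of 5 CPM in 3 libraries gave 6 higher Wnt genes. Limma on log2(FPKM + 1) gave 1976 lower genes in all, 0 lower Wnt genes and 25 lower other pathway genes. With a pseudocount of 0.1 these were 1974, 0 and 25, and without a filter 0 Wnt genes and 26 other pathway genes were lower.

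The replicate numbers are shared by name only: same-numbered libraries had correlations of deviations from their group means of −0.076, 0.044 and 0.052. With the replicate number as a block, 15 Wnt genes changed, 13 higher and 2 lower, as did 66 other pathway genes and 5615 in all. The block with the GC offset gave 6 Wnt genes, 6 higher and 0 lower, 44 other pathway genes, 23 of them lower, and 3101 genes in all, 1562 higher and 1539 lower. Riok3 was at −2.21 with the block and at −1.15 with both, past the threshold each time.

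Log2 fold changes that turned, among those called in the TMM fit or in the alternative, were those of Apc (0.0039) and Lrp6 (0.0485) with GC and length, Axin1 (−0.021) with the GC offset without siNC replicate 2, Fzd3 (1.79 with GC, 2.04 with GC and length, 1.80 with the block and GC, 1.97 with GC without siNC replicate 2) and Gsk3b (0.56, 0.53 and, without siNC replicate 2, 0.48). The cause was not tested. Values not called in either also had the opposite sign in some alternatives: Dvl1 in 10, Fzd1 in 6, Ctnnb1 and Fzd5 in 5 each, Znrf3 in 3, Fzd4, Fzd7 and Sfrp2 in 2 each, Dkk2 and Tcf7l2 in 1 each, and Fzd3 and Gsk3b in further ones. Scaling by the upper quartile or by totals moved the median of all genes from 0.01 to 0.21 or 0.26, and the lower share of called genes from 56% to 43.8 or 39.7%. Ligand genes with under 1 CPM are limited by depth.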
